A study of Mus musculus with 2 samples.

Results

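The genes described here are those that name the protein components of the cytosolic ribosome, the particle that reads messenger RNA and joins amino acids into protein outside the mitochondria. They were chosen by name: every non-control probe whose gene name followed the Rpl, Rps, Rplp0 to Rplp2 or Rpsa pattern, leaving out the S6 kinases, whose names also begin with Rps, and names marked as pseudogenes. That gave 85 genes with 173 probes. Of these, 82 were measured, against 15419 genes measured on at least 1 array in all. By name, 52 of the 85 belong to the large subunit and 32 to the small subunit. The remaining one, Rps19bp1, encodes a binding partner of Rps19 and is no ribosomal protein. It is given below by itself and stays out of the medians. Rps4y2, a transcribed pseudogene, and Rpl7l1, which works in ribosome assembly, stay in by name, as copies.

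RNA came from mouse primary hepatocytes, the parenchymal cells of the liver taken into culture. One group received control siRNA and the other siRNA against G0s2, whose protein inhibits the triglyceride lipase of lipid droplets. Each group was 1 array, hybridised with Cy3-labelled RNA from cells collected 24 hours after a lipid transfection. Both groups had 50 pmol of siRNA and 0.5 ug of RNA taken for labelling. The strain, sex and age of the mice, the number of animals and any pooling were not given in the sources used here. The cells of both groups carried a transfected siRNA, so neither group is untransfected hepatocytes.

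A cytosolic ribosome holds a small subunit, which binds the messenger RNA and checks each codon, and a large subunit, which forms the peptide bond. Each ribosomal protein is used in nearly equal number per ribosome, apart from the acidic stalk proteins, which are present as several copies. Many of the messages begin with a C followed by a run of pyrimidines, the terminal oligopyrimidine tract, through which the mTOR pathway and the RNA-binding protein Larp1 regulate their translation. Hepatocytes export most plasma proteins and rely on a large supply of ribosomes. With bulk RNA, fewer cells of a kind and less RNA per cell cannot be told apart.

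Among the core genes, Rpl29 lay furthest above 0 and Rpsa furthest below it, each seen by more than 1 probe, so the probe letters are shown before their values. The following are 60-base probes on the coding strand, placed by their annotated start in each message. Their letters were not compared with the coding sequence of either gene. The Rpl29 probe lies at chr9:106333554-106333613 (mm9, the build of the scanner tables) and starts at base 365 of the transcript. The Rpsa probe starts at base 876 and is placed at chr9:120040269-120040849 (mm9), a span longer than the probe.
Rpl29: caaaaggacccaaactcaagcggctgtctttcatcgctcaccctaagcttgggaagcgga
Rpsa: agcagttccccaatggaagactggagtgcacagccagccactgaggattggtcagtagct

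Only the first 30 bases are shown for 3 further probes. The brightest Rpl29 probe starts at base 589, the brightest Rpsa probe at base 990, and the single probe of Rps4y2 at base 865 (chr6:148304043-148304102, mm9). The current RefSeq symbol of Rps4y2 is Rps4l, listed as a transcribed pseudogene.
Rpl29 at 589: tagaaatgactcctgccagtgtgaagacag
Rpsa at 990: ctgtgcaggtgcctgagcaaagggaaaaaa
Rps4y2 at 865: ggggaaggggcgtttacgtttgtttatact

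The targeted gene was lower on the array labelled G0s2 siRNA. Its level, which here always means the log2 of the processed signal over that array's 75th percentile, was -0.13 with control siRNA and -2.83 with G0s2 siRNA, a difference of -2.70 ± 0.21, or 6.50-fold lower. The error after ± is the scanner program's own error of the spots. It does not hold the spread between cultures, which 1 array per group cannot give, so no difference below has a test or a p-value. The 75th percentile itself was a signal of 418 with control siRNA and 728 with G0s2 siRNA, and 54.1% and 58.2% of the probes were well above background. All 12 measured hepatocyte markers were above background on both arrays, with a summed signal of 653884 and 1372601. Of the other marker lists, 7 of 8 endothelial, 8 of 8 macrophage, 4 of 8 stellate, 6 of 7 cholangiocyte, 2 of 9 lymphocyte and neutrophil, and 3 of 5 red blood cell genes were measured. Their summed signals lay between 156 and 5627 with control siRNA and between 292 and 8939 with G0s2 siRNA. Centred like the genes, the hepatocyte list had a median difference of 0.39 (10 of 12 above 0). The median was 0.77 for the endothelial list (4 of 7 above 0) and 0.35 for the macrophage list (5 of 8 above 0). It was 0.40 for the stellate list (3 of 4 above 0) and 0.08 for the red blood cell list (2 of 3 above 0). The cholangiocyte list had a median of -0.91 (5 of 6 below 0), and the lymphocyte and neutrophil list -0.82 (2 of 2 below 0). The part of other cells in the ribosomal protein values was not tested.

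The ribosomal protein messages were close to equal on both arrays. The median difference, G0s2 siRNA minus control siRNA, over the 81 measured ribosomal protein names was -0.04 on the log2 scale (SD between genes 0.23), beside -0.06 (SD 0.63) over all genes. Its sign is not settled, because the median lay between -0.04 and 0.07 over the 9 alternative settings that keep a centring on the sample's own RNA. No ribosomal protein gene was 2-fold higher or 2-fold lower, where 4.81% of all genes passed 2-fold upwards and 5.46% downwards. At 1.5-fold, Rpl29 alone was higher and Rps4y2 alone was lower, where 12.4% and 14.6% of all genes passed. Since Rps4y2 is listed as a transcribed pseudogene, 0 of the 76 core genes were 1.5-fold lower. In all, 97.5% of the ribosomal protein names lay within 1.5-fold, against 73.0% of all genes.

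Both the background share and the spread depend on how bright a probe is. Of the 82 probes, 74 were so bright that both arrays read them from the low-gain scan, and 0 member probes were saturated. A total of 345 other genes had a level of at least 6.43 on both arrays, the lower quartile of the core ribosomal protein genes (the smaller of the values of both arrays). Their differences had a median of -0.03 and an SD of 0.24, and 96.2% lay within 1.5-fold. The 57 core ribosomal protein genes in the same signal range had a median of -0.04 and an SD of 0.21, and 98.2% lay within 1.5-fold. Genes of like signal thus had a spread of similar size, whether ribosomal or not.

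Most differences were of the size of the scanner error, 0.20 for nearly every member. Being so even, that error acts for the members as a cut at a set size, not as a measured spread of spots. The 10 spots of an Rpl23 probe had smaller SDs, 0.03 with control siRNA and 0.06 with G0s2 siRNA. For 55 of the 82 genes (67.1%) the difference was smaller than its own error, against 68.1% of the 345 bright genes and 37.8% of all genes. The difference was more than 2 times the error for 5 members (6.10%), beside 9.57% of the bright genes and 35.9% of all genes. Those 5 were Rpl29 above 0 and Rps4y2, Rps19bp1, Rpsa and Rpl36al below 0.

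**Figure D1:**
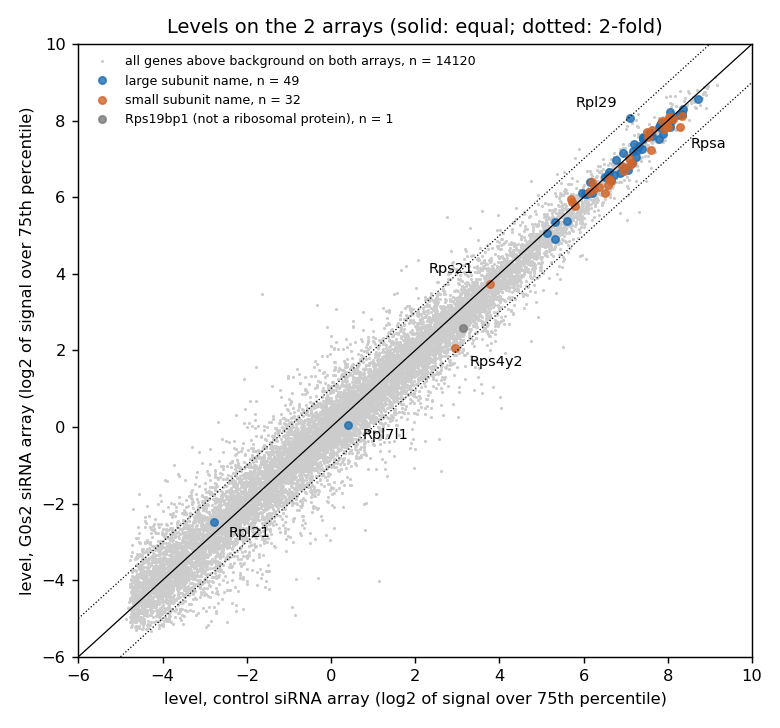
Level of each gene on the control siRNA array (x axis) and the G0s2 siRNA array (y axis), both as log2 of signal over the array's 75th percentile, with 1 point per gene; grey points are all genes above background on both arrays, blue and orange are large and small subunit names. Most ribosomal protein genes sit at the bright end near the line of equality, Rpl29 lies just inside the upper 2-fold line at 7.10 and 8.06, and Rps4y2 lies near the lower one.

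In the large subunit, 24 of the 49 measured genes were above 0 and 25 below 0, with a median of -0.03 and quartiles of -0.15 and 0.10. In the small subunit, 11 of 32 were above 0 and 21 below 0, with a median of -0.09 and quartiles of -0.23 and 0.03. Of all 15419 genes, 6940 were above 0 and 8479 below 0. The large subunit median was 0.06 above the small subunit median. This gap was smaller than the scanner error of 1 probe, and it ranged from 0.03 to 0.08 over the 9 settings. Without the copies of ribosomal protein genes and Rps19bp1, which leaves 76 core genes, the medians were 0.01 for 46 large subunit genes and -0.06 for 30 small subunit genes.

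Grouping the core genes by descent gave no wider gap. The 32 genes of proteins found in all domains of life had a median of -0.03, as had the 44 genes of proteins that archaea or eukaryotes have in addition.

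**Figure D2:**
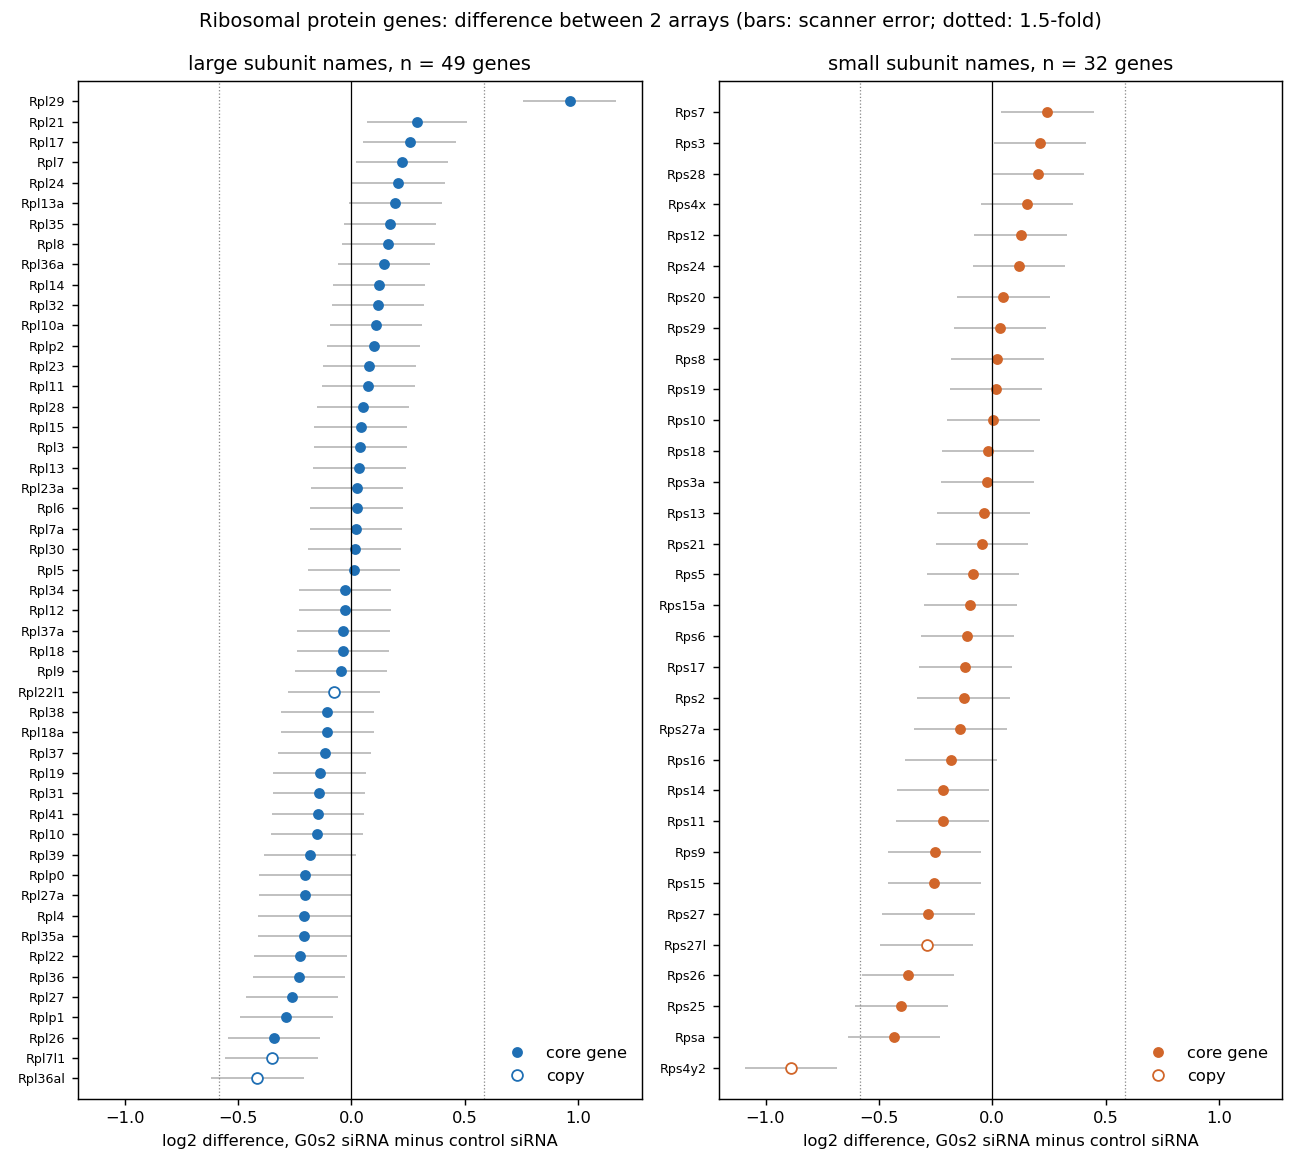
Log2 difference, G0s2 siRNA minus control siRNA, of each measured gene (points) with its scanner error (bars), for 49 large and 32 small subunit names; open points are copies, dotted lines mark 1.5-fold, and each group is 1 array. Both panels run through 0 without a break, apart from Rpl29 at 0.96 and Rps4y2 at -0.89.

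Rpl29 was the gene furthest above 0. It encodes a small basic protein on the outside of the large subunit, also described as a heparin-binding protein at the cell surface. At base 589 of its transcript the level was 7.10 with control siRNA and 8.06 with G0s2 siRNA, a difference of 0.96 ± 0.20 (1.95-fold higher). At base 365, where the 60-base probe printed above starts, the level was 5.63 with control siRNA and 6.43 with G0s2 siRNA, a difference of 0.80. Its 2 probes do not overlap and both passed 1.5-fold, as no probe of any other member did in that direction. Among the 345 other genes of like signal, 9 were at least 1.5-fold higher and the highest difference was 0.93. Rpl29 lay above the median of all genes under each of the 10 alternative settings, by 0.83 to 1.11, and under cyclic loess normalization it passed 2-fold, at 1.07.

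The next large subunit genes were near the scanner error. Rpl21 was at -2.78 with control siRNA and -2.49 with G0s2 siRNA (0.29), read from dim probes at bases 824 and 1514, of which the later one differed by 0.03. Rpl17, which lines the peptide exit tunnel, went from 6.15 to 6.41 (0.26). All 7 Rpl17 probes were above 0, from 0.08 to 0.39. Rpl7 was at 6.93 and 7.16 (0.22), and its 4 probes lay between 0.13 and 0.22. Rpl24, which forms a bridge to the small subunit, was at 7.19 and 7.40 (0.21), but its second probe, at base 491, differed by -0.07. Rpl13a, known apart from the ribosome as the interferon-gamma-regulated silencer of inflammatory messages, was at 6.78 and 6.97 (0.19), and its second probe differed by 0.47. Under normexp background correction Rpl17 was at 0.01, Rpl21 at -0.03 and Rpl13a at 0.41.

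At the other end of the large subunit stood Rpl26, which is known to bind p53 messenger RNA. Its level was 7.06 with control siRNA and 6.72 with G0s2 siRNA (-0.34 ± 0.20). Its 3 probes were at -0.35, -0.34 and -0.22, all below 0. Rpl36al, a copy of Rpl36a, was at 5.33 and 4.91 (-0.41), but its spot was read at high gain in the control and at low gain after G0s2 siRNA. The part of that gain change was not tested. The same change of gain held for Rpl22l1 and Rpl5, whose differences were -0.08 and 0.01.

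The stalk, which recruits the elongation factors, is made of Rplp0 with pairs of Rplp1 and Rplp2. Rplp1 was at 7.80 with control siRNA and 7.51 with G0s2 siRNA (-0.29 ± 0.20), whereas Rplp2 was at 7.85 and 7.95 (0.10 ± 0.20). Rplp0 was at 8.05 and 7.84 at its brightest probe (-0.20), but its other probes were at 0.03 and 0.27. The sign for Rplp0, a frequent reference gene, therefore depends on the probe.

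Rpl5 and Rpl11 bind 5S ribosomal RNA and, when free of the ribosome, inhibit the p53 ligase Mdm2. Rpl5 was at 5.33 with control siRNA and 5.34 with G0s2 siRNA. Rpl11 was at 7.81 and 7.89, and its 3 probes lay between 0.07 and 0.12. Neither gene differed by more than its scanner error. Rpl3, near the peptidyl transferase centre, differed by 0.04, and Rpl10, which joins the large subunit late in its assembly, by -0.15.

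In the small subunit the gene with the lowest core value was Rpsa, which also serves as a laminin receptor precursor. Its brightest probe, at base 990, was at 8.28 with control siRNA and 7.84 with G0s2 siRNA, a difference of -0.43 ± 0.20 (1.35-fold lower). The other 3 probes were further below 0, at -0.79 (base 91), -0.63 (base 876, printed above) and -0.89 (base 1340). The probes at bases 91, 876 and 990 also list predicted transcripts, and what else they bind was not tested. The probe at base 1340 lists none but was dim, at -1.75 with control siRNA. By the mean of its 4 probes, -0.68, Rpsa passes 1.5-fold, while by the brightest probe it does not. It lay below the median of all genes under each of the 10 alternative settings, by 0.28 to 0.85.

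Rps25 and Rps26 came next. Rps25, which is needed for initiation at several internal ribosome entry sites, was at 6.51 with control siRNA and 6.11 with G0s2 siRNA (-0.40), and its second probe at -0.27. Rps26, which touches the messenger RNA upstream of the start codon, was at 7.60 and 7.23 (-0.37). Rps27, a zinc-finger protein, was at 7.11 and 6.83 (-0.28). The 4 Rps27 probes are placed in mm9 on chromosome 9 and not on the chromosome of the gene, and what else they bind was not tested.

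Small subunit genes above 0 were nearer to it. Rps7 was at 5.70 with control siRNA and 5.95 with G0s2 siRNA (0.24), Rps3, a protein at the messenger RNA entry that also has a role in DNA repair, at 6.19 and 6.40 (0.21), and Rps28 at 7.50 and 7.70 (0.20). A second Rps3 probe, at base 1795, differed by -0.18, and under normexp background correction Rps3 was at -0.06, so its sign is not settled. Rps6, the substrate of S6 kinase, was at 6.92 and 6.81 (-0.11), with its other probes at -0.18 and 0.22. Rps18, a common reference gene, was at 6.25 and 6.23 (-0.02).

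Several ribosomal protein genes have a second, retained copy. Of the 8 copies, 3 (Rpl3l, Rpl10l and Rpl39l, known from muscle or testis) were not well above background on either array. The 5 measured copies were below 0, with a median of -0.35, although Rpl22l1 was at 0.00 to 0.02 under quantile normalization, cyclic loess and the authors' values. Rps4y2 was at 2.94 with control siRNA and 2.06 with G0s2 siRNA (-0.89 ± 0.20), while Rps4x, which encodes the small subunit protein itself, was at 5.72 and 5.87 (0.15 ± 0.20). The only Rps4x probe is placed in mm9 on chromosome 3 and the gene on chromosome X. The single probes of Rps4y2 and Rps4x also list predicted transcripts, and what else either probe binds was not tested. Rpl7l1, which works in ribosome assembly, was at 0.41 and 0.06 (-0.35), while Rpl7 itself differed by 0.22. Rpl36al differed by -0.41. The 3 probes of Rpl36a stood at 0.14, 0.05 and -0.38, so its sign depends on the probe. All 3 also list predicted transcripts, and those at bases 422 and 427 overlap but differ in some letters there. What else these Rpl36a probes bind was not tested. The difference was close to that of the parent for Rps27l (-0.29, with Rps27 at -0.28), and nearer to 0 than the parent for Rpl22l1 (-0.08, with Rpl22 at -0.23). The probes of a copy and its parent share no more than 17 to 28 of 60 bases in the best ungapped match. The 5 copies are too few, and were chosen by name with earlier results known, to set them apart from the other genes. Rps19bp1, outside the ribosome, was at 3.12 and 2.59 (-0.53 ± 0.20).

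Probes of the same gene give the nearest thing to a repeat within an array pair. For 51 genes with at least 2 probes above background on both arrays (136 probes), the range between probes had a median of 0.18. It was under 0.2 for 28 genes and reached 0.5 for 4 (Rpl39, Rpl6, Rpl31 and Rpl36a, named after their values were seen). It was 0.71 at most, for Rpl39, whose dim probe at base 334 stood at -0.75 and its other probes at -0.18 and -0.04. All probes had the same sign in 31 genes, above 0 in 13 and below 0 in 18. In 17 genes the first and last probe lay at least 300 bases apart, and the last differed more towards the G0s2 array in 7 of them, with a median of -0.03 for last minus first. Most single-gene differences were no larger than the disagreement between probes.

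One Rpl23 probe was printed as 10 spots. Its mean level was 2.69 (SD 0.03 over 10 spots) with control siRNA and 2.81 (SD 0.06) with G0s2 siRNA. The spots of both arrays overlapped, from 2.63 to 2.76 and from 2.69 to 2.91. A distant Rps15a probe at base 4642 was above background with control siRNA alone, at -4.36, and lower by a factor of at least 1.97 after G0s2 siRNA, while the brightest Rps15a probe differed by -0.10.

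**Figure D3:**
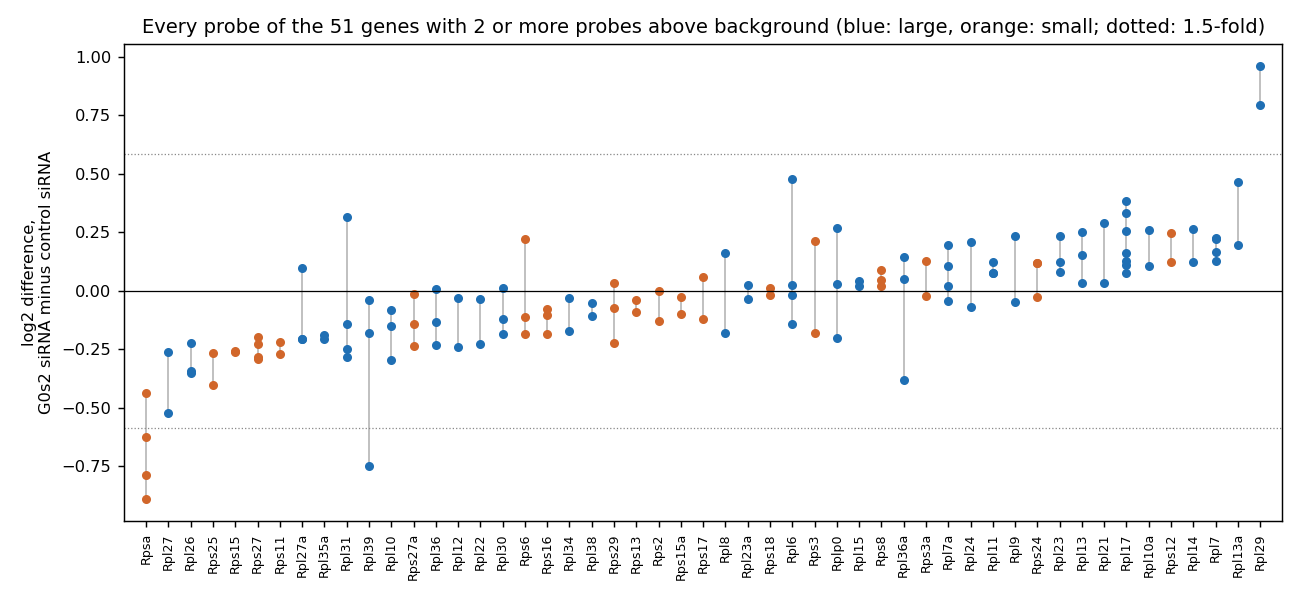
Log2 difference, G0s2 siRNA minus control siRNA, of every probe (points) of the 51 genes with at least 2 probes above background on both arrays, ordered by their median and joined by a line per gene; blue is large subunit, orange small. Rpsa (-0.89 to -0.43) and Rpl29 (0.80 to 0.96) stand at the ends with all their probes on the same side, and the longest line is that of Rpl39.

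The messages' start sites were searched for the letters of a pyrimidine tract, since the members share that control. The 6 letters CTTTCC were sought within 30 bases on either side of the annotated gene start in the RefSeq promoter table (GRCm38.p6), with no other motif searched. They stood on the gene's strand in 12 of 71 promoters (16.9%) of 60 measured ribosomal protein genes, against 2.89% of all 32851 promoters. Rpl35a enters through overlapping promoters that hold the same site, so the 12 promoters stand for 11 genes. On either strand the shares were 19.7% and 5.54%. The windows shown are those in which the letters begin 0 to 4 bases after the annotated start, where the tract of the message would lie, with the letters in capitals: Rpl15 (chr14:18270965-18270994, minus strand), Rpl28 (chr7:4792955-4792984, plus), Rps10 (chr17:27635223-27635252, minus), Rpl38 (chr11:114668568-114668597, plus), Rps27 (chr3:90213630-90213659, minus), Rpl18 (chr7:45718062-45718091, plus) and Rpl35a (chr16:33056472-33056501, plus).
Rpl15: aaagccttcttcCTTTCCtctggcggcagc
Rpl28: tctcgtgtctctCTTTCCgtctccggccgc
Rps10: gcacgccccttcCTTTCCagcctccgcctc
Rpl38: ggaagcctcgttCTTTCCccgttctcttcg
Rps27: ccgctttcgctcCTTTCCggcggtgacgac
Rpl18: tcgcaggccgctCTTTCCccgcccactccg
Rpl35a: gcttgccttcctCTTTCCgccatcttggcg

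The 11 genes with these letters had a median difference of 0.00, from -0.28 to 0.19, and the 49 genes without them -0.05, from -0.43 to 0.24. The range of the first lay within that of the second. A match says only that these letters are there, and no match says nothing of the tract, which can be spelled with other pyrimidines.

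Genes that work with the ribosome were then set beside the members. Fau, which yields a ribosomal protein joined to a ubiquitin-like protein, was at -0.10, and the small subunit scaffold Rack1 was at 0.09. A list of 20 genes, chosen for a pyrimidine tract in their messages, holds mostly translation factors and some other genes. Their own tracts were not searched. The list had a median of 0.00, and 1 of its genes was at least 1.5-fold lower, beside 14.6% of all genes. That was Nap1l1, a histone chaperone, at 4.77 with control siRNA and 4.13 with G0s2 siRNA (-0.64). The 28 other initiation, elongation and release factors had a median of -0.08. Of these, 1 gene was 1.5-fold higher (Etf1, the release factor, 0.87) and 2 were lower, beside 12.4% and 14.6% of all genes. Eif5a stood lowest at -0.98.

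The 88 ribosome biogenesis factors had a median of -0.03, close to that of all genes, of which 8 passed 1.5-fold upwards and 6 downwards, smaller shares than the 12.4% and 14.6% of all genes. Those at least 2-fold higher were Pes1 (2.58 ± 0.21), Mdn1 (1.37), Rrp8 (1.14) and Nol8 (1.04), beside 4.81% of all genes, and 0 were 2-fold lower. Pes1 belongs to the complex that processes the large subunit's ribosomal RNA, and its level was -2.26 with control siRNA and 0.32 with G0s2 siRNA. The 14 genes of RNA polymerase I and its factors, which make that RNA, had a median of -0.29, and Rrn3 was lowest at -0.77. The 21 genes of ribosome quality control had a median of 0.03. Of these genes, 3 passed 1.5-fold upwards and 0 downwards, beside 12.4% and 14.6% of all genes.

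The 31 regulators of ribosomal protein synthesis spread more widely (SD 0.76) about a median of 0.11. Of these, 3 were at least 2-fold lower and 2 at least 2-fold higher, beside 5.46% and 4.81% of all genes. Eif4ebp2, a repressor of cap-dependent initiation, went from 3.03 to 0.91 (-2.13), and Maf1, a repressor of RNA polymerase III, from 2.06 to 0.43 (-1.63). Deptor, an inhibitor of mTOR, was at -0.62 and 1.00 (1.62), and Eif4ebp3 at 1.64 and 2.82 (1.17). Larp1 (-0.82) and Mtor (0.77), named after their values were seen, also passed 1.5-fold. The array measures messages and holds no reading of translation or of mTOR activity.

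Other large complexes made of many proteins were read on the same arrays. The 79 measured mitochondrial ribosomal protein genes had a median of -0.37, with 73 below 0, where 8479 of all 15419 genes lay below 0. Of these 79, 17 were at least 1.5-fold lower (14.6% of all genes) and 3 at least 2-fold lower (5.46% of all genes). The 35 proteasome subunit genes had a median of -0.19, with 26 below 0. Of these 35, 3 were at least 1.5-fold lower (14.6% of all genes). Only 1 was at least 2-fold lower, at -2.02 (5.46% of all genes). The mitochondrial and proteasome medians stand 0.33 and 0.16 below that of the cytosolic ribosomal protein genes. With 1 array a group neither gap could be tested.

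**Figure D4:**
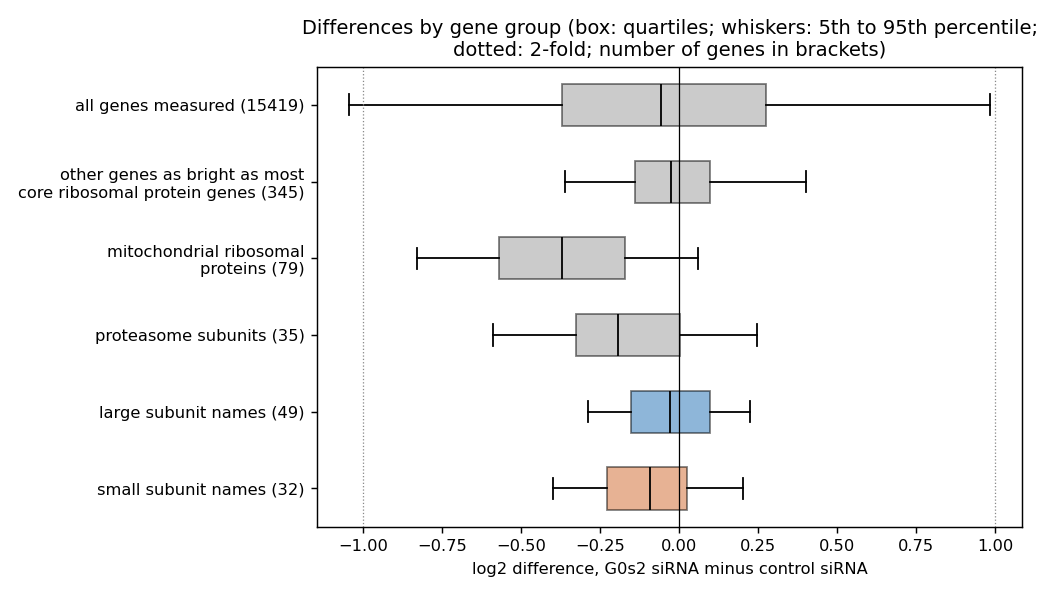
Log2 difference, G0s2 siRNA minus control siRNA, by gene group; boxes span the quartiles with the median, whiskers the 5th to 95th percentile, and dotted lines 2-fold. The large and small subunit boxes (medians -0.03 and -0.09) are about as wide as that of the 345 other genes of like signal, and the mitochondrial ribosomal protein box (-0.37) lies lower.

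All these differences are relative to the 75th percentile of each array. The 8 labelled spike-in RNAs above background were themselves lower on the G0s2 array (median -0.72 before centring). Centred on them, all genes had a median difference of 1.46 and the ribosomal protein genes 1.48, so the gap between them stayed at 0.02, while all 81 ribosomal protein genes, Rps4y2 included (0.63), came out at least 1.5-fold higher. Whether the cells of both groups held equal amounts of RNA was not measured, since 0.5 ug of RNA was taken for labelling in each group.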

How the data were processed

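The authors deposited scanner tables of 2 Agilent 1-colour arrays, 1 per group, read per the file headers with Agilent Feature Extraction 10.7.1.1 and holding linear spot intensity values. The processed intensity is background-corrected and detrended by that program, per the file headers. The authors' deposited series table, linear with a median of 33.1 in both columns and sorted values that differ by at most 3.11 between them, served as an alternative. Its scaling method was not stated. The files used here hold 1 array per group, so no p-value is given, precision is limited, and any effect of an array's place on the slide cannot be told apart from the siRNA.

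Here log2 of the processed intensity minus each array's 75th percentile was taken over non-control probes, outlier spots were left out, spots of a probe were averaged, and each gene took the value of its brightest probe, once either array had flagged that probe as well above background. Genes were named through RefSeq (GRCm38.p6) by accession, symbol, then synonym. A probe on background had only a bound. Alternatives used R 4.3.3 with limma 3.58.1 (normexp with an offset of 50, quantile, cyclic loess). Python 3.11.15, numpy 2.4.6 and pandas 2.3.3 did the rest, tested on simulated data.

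The members, the gene lists and the rules were chosen with earlier results of these data known. Named genes were the 8 highest and 8 lowest members, copies with their parents, the stalk, 5S-binding and reference genes, Rpsa, unmeasured members and up to 4 genes of each other list. For 30 members the brightest probe also lists a predicted transcript, and 11 probes of 6 genes are placed on a chromosome other than the gene's.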

Additional observations from a re-analysis of the deposited data

How the results depend on the processing

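No paired analysis was possible because each group was 1 array. Of the alternatives run (normexp background correction, centring on the median or on spike-in RNAs, quantile and cyclic loess normalization, both filters on dim probes, the mean or dimmest probe of a gene, and the authors' values), spike-in centring moved the ribosomal protein median to 1.48, the large subunit median to 1.49 and the small subunit median to 1.43, with 80 genes 2-fold higher, 81 past 1.5-fold upwards and 0 past it downwards, and turned Rps4y2 to 0.63. Those values follow from the construction, since the median of all genes moved to 1.46. Cyclic loess put 1 gene, Rpl29, past 2-fold higher. The count at least 1.5-fold lower was 2 without a filter on dim probes, 2 with the mean over probes and 4 with the dimmest probe. The gene added without the filter was Rpl10l at -0.60, below background on both arrays. Of 33 named genes, 6 moved by more than the scanner error under normexp (Rpl17 to 0.01, Rpl21 to -0.03, Rps3 to -0.06, Rpl13a to 0.41, Rps27l to -0.52 and Rps4y2 to -0.67), and Rpl10 (0.05) and Rps18 (0.17) turned sign. With the mean over probes 3 moved (Rpl36a to -0.06, Rplp0 to 0.03, Rpsa to -0.68). With the dimmest probe 9 moved, of which Rpl24 (-0.07), Rpl36a (-0.38), Rplp0 (0.03), Rps3 (-0.18) and Rps6 (0.22) turned sign, as did Rps18 (0.01). Rps18 also turned under quantile, cyclic loess and the authors' values, at 0.03 to 0.08, and Rpl22l1 at 0.00 to 0.02. The cause was not tested. The large minus small subunit gap stayed between 0.03 and 0.08, also at 0.08 with core genes alone or with genes read at the same scan gain, both added after the data were seen. Normexp and no filter moved the median of all genes to -0.15 each.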
